A study of Mus musculus with 6 samples.

Results

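The immediate early genes described here are Fos, Fosb, Junb, Egr1, Egr2, Egr4, Arc, Npas4, Nr4a1 and Nr4a3, which are 10 of the 32285 genes counted in nuclei of the mouse forebrain. They were taken by symbol from the gene list of the count matrix, and each symbol matched 1 gene. The set was chosen by measured values, since a group of nuclei led by Egr4 had been seen to come mostly from the library with barcode suffix 4. Counts of these genes by library are therefore descriptions, and no test was made on them.

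Single-nucleus RNA sequencing (10x Genomics, 3′ libraries) was done on frozen forebrain from 3 WT and 3 Npc1-/- littermates at postnatal day 16, none of them treated. The mice were hybrids of the BALB/cJ and C57BL6/J strains, and the Npc1-/- animals lack NPC1, a lysosomal protein that exports cholesterol, in all cells. Both sexes were used in the study as a whole, and the sex of the mice sequenced here is not given. The mice were killed with isoflurane and then decapitated. All nuclei stand in 1 matrix, in which a suffix from 1 to 6 on each barcode names the library. No source used here pairs a suffix with a mouse, so libraries are named by suffix and genotypes were not compared.

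Immediate early genes are transcribed within minutes of a stimulus without new protein synthesis, and their RNAs are short-lived. In neurons synaptic activity and calcium entry switch them on through factors that are already bound or waiting in the nucleus, such as CREB, SRF with its ELK partners, and MEF2. Most of the products are transcription factors that act on later genes, and a few act at the synapse.

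The promoters of 8 of the 10 genes were found in the RefSeq promoter table (build GRCm38.p6), while Arc and Egr1 had no entry. CREB binds the cyclic AMP response element, whose core is TGACG, read on both strands. This core was present in the 250 bases before the start of 8 of the 8 genes, at 3 of the 5 listed starts of Egr2 and at the only listed start of each of the others. Of all 32851 promoters in the table, 17.8% held it in the same window. Some windows overlap annotated exons of their gene, by 250 of 250 bases for Npas4, 152 for Nr4a3 and 6 for Fosb. The full palindrome TGACGTCA was in 0 of the 8 genes and in 1.55% of all promoters. The 4 sequences printed are those of genes with 1 listed start whose whole window lies outside annotated exons, and they show where the core lies. The core is in capitals, with CGTCA being the core on the other strand, and each sequence ends at the base before the start. They cover chr12:85473640-85473889 on the plus strand for Fos, chr8:84978749-84978998 on the minus strand for Junb, chr6:85513590-85513839 on the minus strand for Egr4 and chr15:101266596-101266845 on the plus strand for Nr4a1.
Fos: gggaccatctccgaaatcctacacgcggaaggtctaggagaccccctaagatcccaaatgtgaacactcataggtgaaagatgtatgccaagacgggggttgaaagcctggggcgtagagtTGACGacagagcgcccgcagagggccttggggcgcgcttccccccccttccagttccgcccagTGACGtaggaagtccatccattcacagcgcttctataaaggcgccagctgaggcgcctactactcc
Junb: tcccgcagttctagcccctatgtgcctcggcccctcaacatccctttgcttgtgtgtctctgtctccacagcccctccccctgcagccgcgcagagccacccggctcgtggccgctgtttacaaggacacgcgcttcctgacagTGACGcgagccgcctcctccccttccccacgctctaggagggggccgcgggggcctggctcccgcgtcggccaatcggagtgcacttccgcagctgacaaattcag
Egr4: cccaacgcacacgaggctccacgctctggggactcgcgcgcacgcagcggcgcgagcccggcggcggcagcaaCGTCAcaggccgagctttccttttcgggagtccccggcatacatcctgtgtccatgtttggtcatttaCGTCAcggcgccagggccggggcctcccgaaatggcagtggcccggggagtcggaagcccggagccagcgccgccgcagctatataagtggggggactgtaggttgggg
Nr4a1: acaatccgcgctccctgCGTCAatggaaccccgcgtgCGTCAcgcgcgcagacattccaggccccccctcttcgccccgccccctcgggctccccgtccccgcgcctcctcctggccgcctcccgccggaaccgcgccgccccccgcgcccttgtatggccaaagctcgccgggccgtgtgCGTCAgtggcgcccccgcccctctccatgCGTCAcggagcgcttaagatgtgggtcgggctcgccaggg
The 2 cores of Fos lie 129 to 125 and 66 to 62 bases before the start, and the TATAAA box of Fos lies 33 to 28 bases before it. TATAAA was in 1 of the 8 genes and in 12.4% of all promoters. Nr4a1 holds 4 cores, Egr4 2 and Junb 1. The EGR motif GCGNGGGCG, which the products of the Egr genes bind, was in 2 of the 8 genes, Fosb and Nr4a1, against 4.7% of all promoters. The serum response element was in 1 gene, Egr2, against 1.47%, and the AP-1 motif TGANTCA, the NR4A motif AAAGGTCA and the MEF2 motif were in 0 of the 8, against 6.75%, 1.34% and 2.92%. Overlapping matches of different motifs were counted for each motif. These are matches of letters in a short window and were not tested as binding sites.

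The matrix held 75878 barcodes, of which 75867 had under 10% mitochondrial UMIs and were kept. A UMI is a molecular tag that counts each captured RNA once. The libraries held 8217 to 16118 barcodes and between 51343653 and 107583300 UMIs, with a median of 4469 to 5439 UMIs per nucleus. The 10 genes together had 66358 UMIs. Any 2 libraries had 20 to 75 barcode sequences in common, at most 0.545% of the smaller library. Npc1 was read in each library, at 25.5 to 32.2 counts per 1000000 UMIs (CPM), taken over all UMIs of a library or class of nuclei. Clusters were named from marker lists and are called "like" a type: 27 of 37 clusters, with 72.0% of nuclei, received a name, in 24 types. RNA that is free in the suspension also enters droplets, and a neuronal gene read outside neurons gauges it. Slc17a7, the vesicular glutamate transporter of cortical excitatory neurons, stood at 171 CPM in cortical excitatory neuron-like nuclei and at 79.3 CPM in non-neuronal nuclei. Other markers on the excitatory list gave other ratios: Neurod6, Neurod2 and Tbr1, transcription factors of excitatory neurons, stood at 21.3, 20.1 and 16.5 CPM in the cortical and 17.5, 14.4 and 12.6 CPM in the non-neuronal nuclei, and Nrgn, a calmodulin-binding protein of dendrites, was higher in the non-neuronal nuclei at 292 against 212 CPM. After each nucleus was thinned to 3000 UMIs, 40.8% of the cortical nuclei and 19.7% of the non-neuronal nuclei still had an Slc17a7 UMI, with median depths before thinning of 8471 and 4451 UMIs.

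A group of nuclei led by Egr4 did not appear among the clusters, but the clustering could not have formed one from the 10 genes themselves. At each of 3 clustering resolutions 0 clusters had any of the 10 among their 10 leading genes, and in these runs the activity-regulated genes were left out. When they were not left out, 0 of the 10 were among the 3000 most variable genes, so the members did not enter that clustering either. Egr4 encodes a zinc-finger transcription factor of the EGR family. At least 2 Egr4 UMIs were found in 172 nuclei, of which 24, 33, 45, 36, 26 and 8 came from libraries 1 to 6. Library 4 thus gave 20.9% of these nuclei and 16.1% of all nuclei kept. At least 3 Egr4 UMIs were found in 14 nuclei, 1 of them from library 4. The 172 nuclei were spread over neuronal and non-neuronal types, with 24 striatal projection neuron-like, 14 Rorb cortical-like and 12 astrocyte-like, while 57 were in clusters without a name.

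What did differ between libraries was the level of the set as a whole in cortical excitatory neuron-like nuclei. These were 11686 nuclei of 6 clusters (upper-layer, Rorb, layer 5, layer 6 and other cortical excitatory-like), with 1460 to 2216 nuclei per library. Summed over the 10 genes, libraries 1 to 6 stood at 99.8, 170.4, 195, 221, 232 and 125 CPM, with a median of 183. Library 1 was lowest and library 5 highest, 2.32-fold apart, and library 4 was second to library 5, with intervals that overlapped. Counting error was small against this spread: the exact 95% Poisson interval was 95.4 to 104 CPM in library 1 and 225 to 239 in library 5. Library 4 was above the median of the other libraries by 0.37 on the log2 scale (0.31 to 0.44), but by 0.15 when UMIs per nucleus were compared. Its cortical nuclei were shallower (median 7479 UMIs against 8456 to 8792 elsewhere). Intervals throughout cover counting error only and say nothing of the spread between mice.

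The members of the AP-1 family, FOS and JUN proteins that pair to bind DNA, had the following levels in these nuclei. Fos (chr12:85473890-85477273, plus strand) stood at 1.88, 3.35, 5.94, 7.60, 8.69 and 3.55 CPM in libraries 1 to 6. The highest library, 5, was 4.62-fold above the lowest, 1, and their intervals did not meet. Fosb (chr7:19302696-19310051, minus strand) was sparse at 0.470, 1.24, 1.80, 1.96, 2.60 and 0.780 CPM, from 9 to 47 UMIs per library. Library 5 was again highest and library 1 lowest. Junb (chr8:84974484-84978718, minus strand) stood at 10.5, 11.9, 19.6, 19.3, 18.5 and 10.1 CPM. Junb moved least of the 10 between its extremes, 1.93-fold, from library 6 to library 3. The last 351 bases of Junb overlap Prdx2 on the other strand, and the sources used here do not give whether counting used strand, so some Junb UMIs could belong to Prdx2.

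The EGR family, zinc-finger factors that bind GC-rich sites, did not follow 1 order. Egr1 (chr18:34859823-34864984, plus strand), which is used as a marker of recent neuronal activity, stood at 23.3, 31.4, 38.6, 44.9, 34.3 and 15.04 CPM in libraries 1 to 6. Egr1 was the only one of the 10 with its highest level in library 4, and library 6, not library 1, was lowest, 2.99-fold below. Egr2 (chr10:67535475-67542188, plus strand), known also for its role in myelinating Schwann cells, was the sparsest member, with 7, 34, 37, 31, 37 and 10 UMIs and 0.365, 1.56, 1.85, 1.73, 2.05 and 0.709 CPM. Egr4 (chr6:85511121-85513589, minus strand) stood at 4.595, 5.97, 6.74, 6.71, 6.86 and 3.40 CPM. Libraries 2 to 5 lay within 5.97 to 6.86 CPM for Egr4 and their intervals overlapped, so library 4 did not stand out for the gene that led to this set.

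Nr4a1 and Nr4a3 encode orphan nuclear receptors that work without a known hormone. Nr4a1 (chr15:101254269-101274795, plus strand) stood at 36.8, 60.9, 66.0, 72.2, 78.1 and 55.0 CPM in libraries 1 to 6. Nr4a3 (chr4:48045153-48086447, plus strand) stood at 12.3, 36.5, 33.7, 35.8, 41.2 and 23.8 CPM. For both genes library 1 was the lowest and library 5 the highest, 2.12-fold apart for Nr4a1 and 3.34-fold for Nr4a3. They gave a large part of the summed level, for example 72.2 and 35.8 of 221 CPM in library 4, so the sum was also taken without them. Library 4 was then 0.63 above the median of the others on the log2 scale in place of 0.37. In this sum library 6 was lowest, below library 1, and libraries 4 and 5 stood nearly level.

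Npas4 and Arc were taken last. Npas4 (chr19:4984355-4990316, minus strand), a transcription factor that responds to calcium entry and regulates synapses, stood at 5.33, 5.74, 9.19, 11.8, 13.9 and 6.03 CPM. Arc (chr15:74669083-74672570, minus strand), whose protein acts at the synapse in the removal of AMPA receptors, stood at 4.33, 11.7, 11.9, 18.9, 25.4 and 7.02 CPM. Arc had the widest range of the 10, 5.85-fold from library 1 to library 5, from 83 and 458 UMIs. Npas4 was also highest in library 5 and lowest in library 1, 2.62-fold apart.

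**Figure D1:**
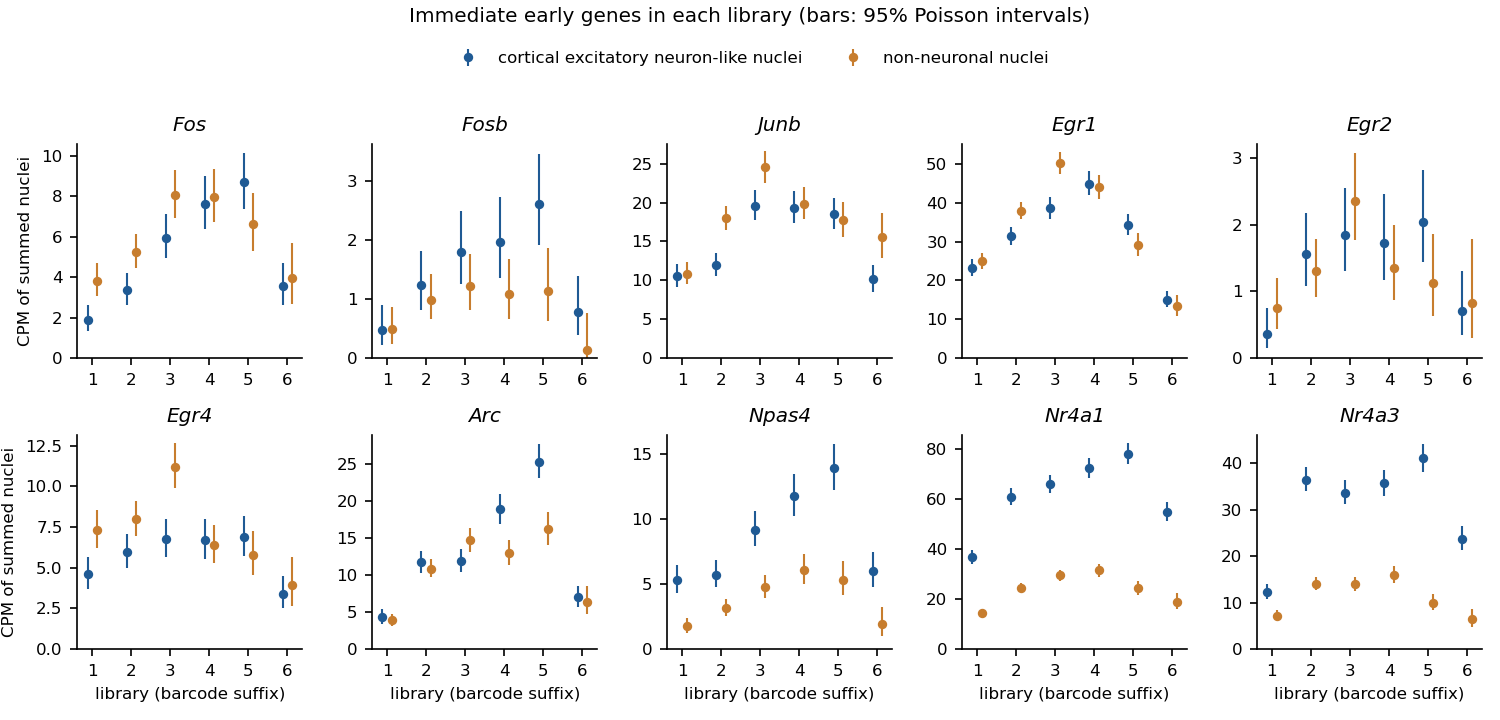
Level of each gene in CPM of the summed nuclei (y axes, starting at 0 and scaled for each gene) in libraries 1 to 6 (x axes), for cortical excitatory neuron-like nuclei in blue and non-neuronal nuclei in orange, with exact 95% Poisson intervals. In the cortical nuclei the lowest level is in library 1 for 7 genes and in library 6 for 3, and Npas4, Nr4a1 and Nr4a3 stand above the non-neuronal nuclei in all 6 libraries.

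In the cortical nuclei library 1 had the lowest level of 7 genes and library 6 of 3, while the highest level was in library 5 for 8 genes, in library 3 for 1 and in library 4 for 1. The share of all genes with their lowest or highest level in each library is not given. Each library was then set against the median of the other 5 over the 11045 genes with at least 5 CPM, 8 of them members (Fosb and Egr2 were too low), without a test because the libraries are not replicates of a known group. Library 1 was at least 2-fold lower for 3 of the 8, Fos, Arc and Nr4a3, against 0.263% of all genes, and the median of the 8 was -0.83 on the log2 scale beside 0.00 over all genes. Library 6 was at least 2-fold lower for 1, Egr1, against 2.82% of all genes, with a median of -0.76 beside -0.06. Library 5 was at least 2-fold higher for 3, Fos, Arc and Npas4, against 0.154%, with a median of 0.49 beside -0.07. Library 4 was at least 2-fold higher for 1, Fos, against 0.263%, with a median of 0.60 beside 0.05. Libraries 2 and 3 were at least 2-fold higher for 0 of the 8, against 0.199% and 0.0453% of all genes, and their medians were -0.15 and 0.24. These 6 comparisons share libraries with each other. In such sums, fewer nuclei with these RNAs and less RNA in each cannot be told apart.

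Other measures of the cortical nuclei differed between libraries too, and their part in the result was not tested. The median mitochondrial share ran from 0.0113% in library 6 to 0.0902% in library 2. The cortical nuclei were 13.8% to 17.8% of a library, and Rorb cortical-like nuclei, which had the highest summed level, were 20.9% of them in library 6 and 26.1% in library 5. Within Rorb cortical-like nuclei the summed level ran from 98.5 CPM in library 1 to 287 CPM in library 5. Within layer 6 cortical-like nuclei it ran from 110 CPM in library 1 to 239 CPM in library 5. The summed level of part of the excitatory marker list in non-neuronal nuclei was 482, 523, 572, 449, 322 and 298 CPM in libraries 1 to 6. Most of it was Nrgn, which stood at 292 CPM in non-neuronal and 212 CPM in cortical nuclei, so the sum is a weak gauge of free RNA. In the same non-neuronal nuclei the 10 genes were also highest in library 3 and lowest in library 6, but the order between these was not the same. Library 1, with the markers at 482 CPM, was close to library 6 for the 10 genes. The intervals of 4 other libraries lay apart from that of library 6.

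The difference between libraries was not limited to cortical nuclei. In each of the 24 named types the lowest summed level was in library 1, for 14 types, or in library 6, for 10. No such count is given for other genes. Some types were small, such as Drd1 striatal-like with 26 to 50 nuclei per library, where the interval of library 1, the lowest, overlapped all others. The types of a library also share its free RNA, so they are not separate observations. The highest was in library 4 for 10 types, in library 3 for 9, in library 5 for 4 and in library 2 for 1. Non-neuronal nuclei stood at 75.4, 124, 160, 147, 117 and 71.7 CPM in libraries 1 to 6, while the striatal projection neurons' class had 66.4, 132, 162, 161, 130 and 81.2 CPM. Library 5 had the highest value in cortical nuclei and library 3 in striatal nuclei, with library 4 next in each. The intervals of the highest library and the next overlapped, which alone does not decide whether they differ. The lowest value was that of library 1 or 6 in all 3 classes.

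Across types, the summed level was highest in Rorb cortical-like nuclei at 199 CPM (194 to 205). Layer 6 at 186 (181 to 192), layer 5 at 181 (167 to 195) and hippocampal pyramidal-like nuclei at 179 CPM came next. The interval of layer 5 overlapped that of the Rorb nuclei and those of layer 6 and hippocampal nuclei did not. The lowest were thalamic-like nuclei at 75.0 CPM (70.9 to 79.4), mature oligodendrocyte-like at 77.9 and Lhx6 interneuron-like at 80.9, whose intervals also overlapped. On this scale microglia-like nuclei followed at 169 CPM, although they held 425 UMIs of the set per 1000 nuclei, the fewest of all types, in shallow nuclei (median 2278 UMIs). Rorb cortical-like nuclei held 1903 UMIs per 1000 nuclei, the most of all types. Over the 6 libraries, cortical excitatory neuron-like nuclei were above striatal projection neuron-like nuclei by 0.49 on the log2 scale of CPM (0.44 to 0.53) and in 6 of 6 libraries. Without Nr4a1 and Nr4a3 this difference was 0.0066, so it rested on those 2 genes.

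**Figure D2:**
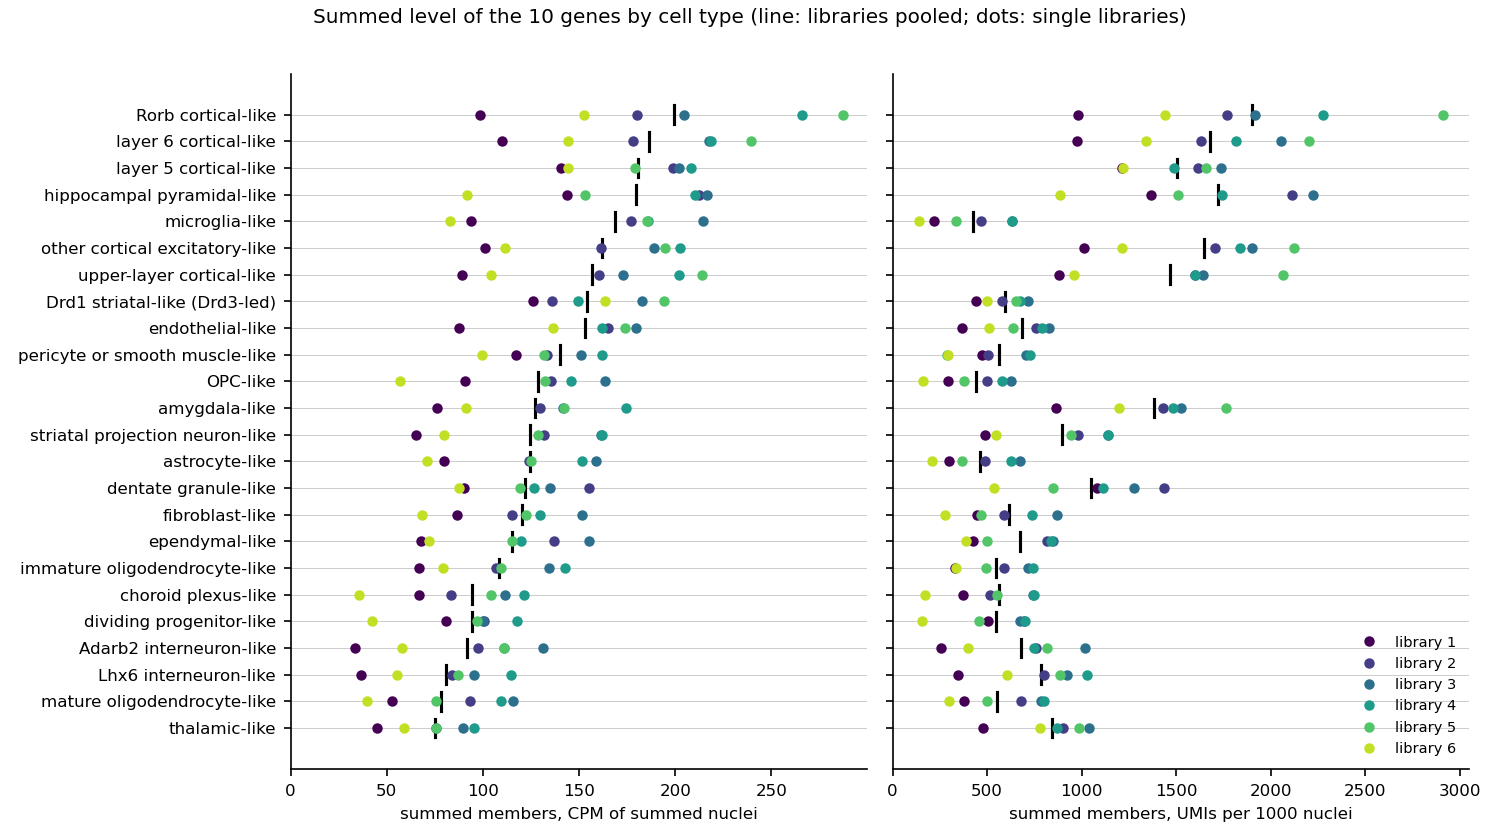
Summed level of the 10 genes in each named type (rows), as CPM (left) and as UMIs per 1000 nuclei (right), with both axes from 0; a black line marks all libraries pooled and dots mark single libraries. Library 1 or library 6 is the leftmost dot of every row on the left, and the shallow microglia-like nuclei move from the upper rows by CPM to the lowest value by UMIs per nucleus.

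The genes differed in the types where they were highest. Nr4a3 had the most uneven profile. It stood at 67.7 CPM (59.3 to 76.9) in layer 5 cortical-like nuclei and 52.4 CPM (48.3 to 56.7) in dentate granule-like nuclei, against 7.26 CPM in thalamic-like nuclei. In dentate granule-like nuclei it stood at 45.7, 75.3, 53.9, 41.8, 47.4 and 39.4 CPM in libraries 1 to 6, while Nr4a1 was among its lowest there at 19.2 CPM. Library 2, not library 5, was highest for Nr4a3 in the dentate. In layer 5 cortical-like nuclei it stood at 42.5, 74.2, 89.2, 59.8, 68.0 and 66.1 CPM, highest in library 3. In the other direction, layer 5 cortical-like nuclei had among the lowest levels of Egr1 (16.3 CPM) and of Arc (5.23 CPM).

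Rorb cortical-like nuclei, which include the layer that receives thalamic input, were first for Nr4a1 at 69.3 CPM (66.1 to 72.5), for Arc at 18.2 (16.6 to 19.8) and for Npas4 at 10.6 (9.37 to 11.9), each with an interval that overlapped the next type. In these nuclei Arc ran from 4.09 CPM in library 1 to 37.6 CPM in library 5. Npas4 was close behind in striatal projection neuron-like nuclei at 9.58 CPM (8.64 to 10.6). Egr4 was higher in the striatal than in the cortical nuclei, with a cortical over striatal ratio of CPM of 0.651 (0.572 to 0.743), below 1 in 6 of 6 libraries, and of 0.873 per nucleus (0.766 to 0.995), above 1 in libraries 4 and 5. Interneuron-like nuclei had the lower level of each of the 10 genes against cortical nuclei, with pooled ratios from 1.499 for Egr2, whose interval of 0.998 to 2.33 reached 1, to 3.17 for Fosb. For Fos, Fosb and Egr2 the intervals of the highest types overlapped, so these counts give no first type. Fos was at 7.82 CPM in astrocyte-like and 6.84 CPM in Rorb cortical-like nuclei, Fosb at 2.02 CPM in layer 6 cortical-like nuclei and Egr2 at 1.92 CPM in upper-layer cortical-like nuclei.

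**Figure D3:**
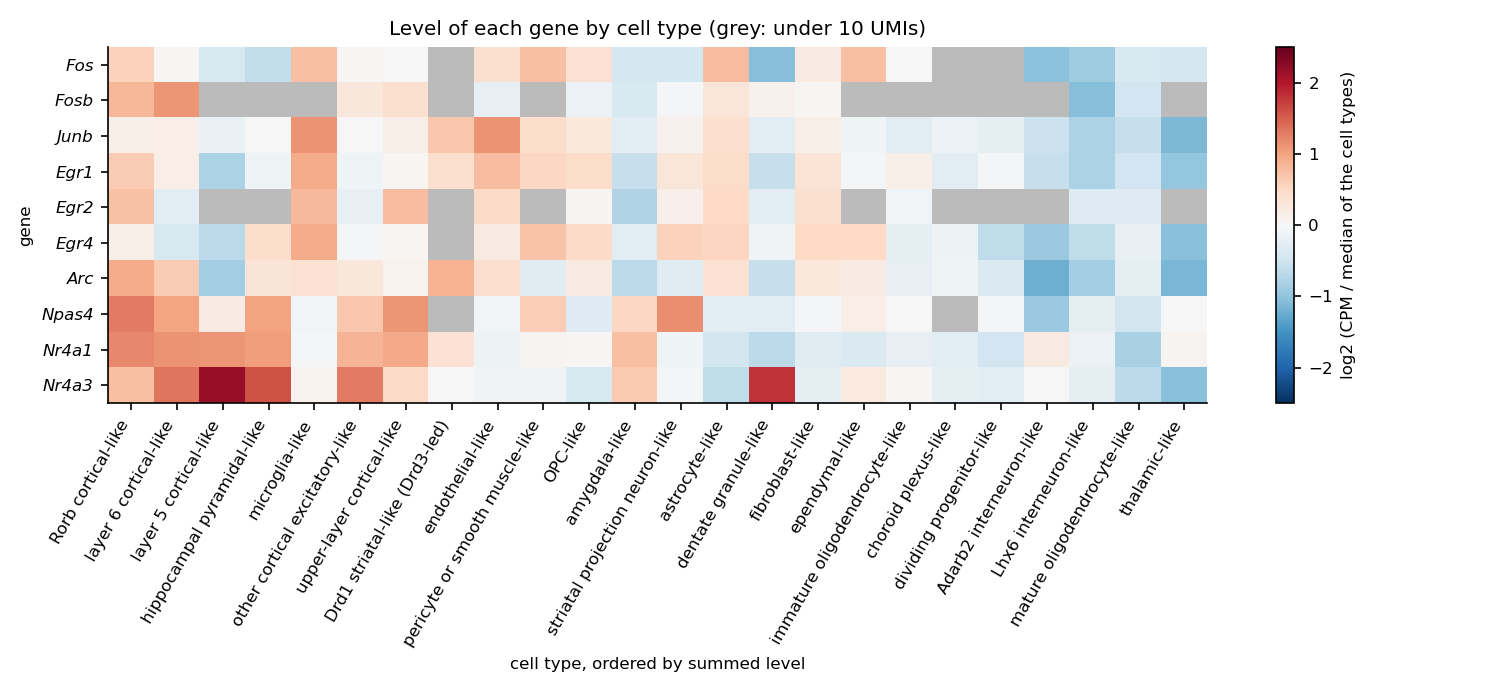
Level of each gene (rows) in each named type (columns, ordered by summed level) as log2 of its CPM over the median of the types, from blue (below) to red (above), with cells under 10 UMIs in grey. Nr4a3 is most red in layer 5 cortical-like and dentate granule-like nuclei, and Junb, Egr1 and Egr4 are red in microglia-like nuclei.

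Cortical excitatory neuron-like nuclei were then set against the 26184 non-neuronal nuclei, as a background measured in the same libraries. Nr4a1 was 2.54-fold higher in the cortical nuclei (2.43 to 2.65), Nr4a3 2.57-fold (2.41 to 2.74) and Npas4 2.25-fold (2.00 to 2.52), each in 6 of 6 libraries. These were 3 of the 8 members with at least 5 CPM, beside 6.08% of the 12501 genes tested that were at least 2-fold higher in the cortical nuclei. Arc was 1.21-fold higher (1.12 to 1.31), in 5 of 6 libraries. Egr4, Junb, Fos and Egr1 were lower per UMI in the cortical nuclei, at ratios of 0.752, 0.838, 0.850 and 0.880, and none of their intervals reached 1. The median log2 ratio was -0.524 over all genes tested and 0.046 over the 8 members, so the typical gene was also lower per UMI in the cortical nuclei. Per nucleus, where the deeper cortical nuclei count for more, all 10 genes were higher in the cortical nuclei, by 1.65-fold for Egr4 to 5.66-fold for Nr4a3.

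The non-neuronal signal was uneven between types. Junb stood at 30.8 CPM in microglia-like and 30.5 CPM in endothelial-like nuclei, against 15.1 in the cortical nuclei and 9.43 in mature oligodendrocyte-like nuclei. Egr1 stood at 53.8 CPM in microglia-like nuclei (48.3 to 59.7) and at 36.5, 64.7, 67.4, 57.9, 53.2 and 14.6 CPM in their libraries 1 to 6. After thinning to 3000 UMIs, Egr1 was seen in 9.05% of cortical nuclei (8.53 to 9.59), 10.2% of non-neuronal nuclei (9.76 to 10.7) and 4.90% of interneuron-like nuclei. Nr4a1 was seen in 16.8%, 6.38% and 8.60% of the same classes. Without thinning the shares in these classes were 23.5%, 13.6% and 13.2% for Egr1 and 39.2%, 9.09% and 20.1% for Nr4a1, at median depths of 8390, 3376 and 7566 UMIs. These genes can be induced in many cell types, so the share of Slc17a7 is given beside them: at equal depth it was 19.7% in non-neuronal and 13.4% in interneuron-like nuclei. It is 1 marker, and others on its list were closer to level between the classes or higher outside the cortical nuclei. The part of free RNA in the shares of Egr1 and Nr4a1 was not tested.

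How many of the genes a single nucleus held was counted after thinning to 3000 UMIs, which left out 223 of 11686 cortical nuclei and 10582 of 26184 non-neuronal nuclei as too shallow. Of the 11463 cortical nuclei, 7064 had none of the 10 genes, 3307 had 1, 908 had 2, 153 had 3, 26 had 4, 4 had 5 and 1 had 6. At least 3 genes were seen in 0.104%, 1.37%, 1.59%, 2.32%, 2.86% and 1.42% of the cortical nuclei of libraries 1 to 6, from 2 nuclei in library 1 to 50 in library 5. The share of library 4, 2.32% (1.72 to 3.05, Clopper-Pearson), overlapped those of libraries 2, 3, 5 and 6. Without thinning the shares were 5.20%, 13.8%, 16.6%, 17.1%, 23.1% and 7.81%.

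Nuclei with several of the genes were also found outside the cortical excitatory class. After thinning, the share with at least 3 was 1.05% in striatal projection neuron-like nuclei (54 of 5153), 0.519% in non-neuronal nuclei (81 of 15602) and 0.284% in interneuron-like nuclei (9 of 3164). Library 6 had 0 such nuclei among 766 non-neuronal and 358 interneuron-like nuclei, which allows shares of up to 0.392% and 0.838% by the limit of 3 counts. Of the named types, Rorb cortical-like nuclei had the highest share, at 2.34% (1.81 to 2.98), while 0 of 404 layer 5 cortical-like nuclei had 3, which allows up to 0.743%.

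**Figure D4:**
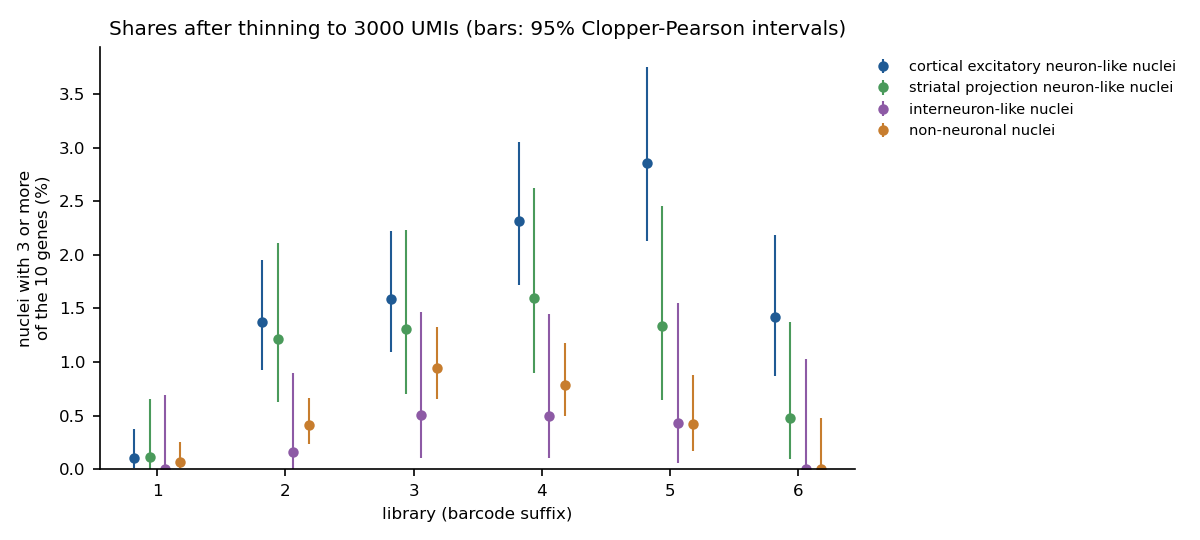
Percent of nuclei with at least 3 of the 10 genes after thinning each nucleus to 3000 UMIs (y axis, from 0) in libraries 1 to 6 (x axis), for 4 classes of nuclei in colour, with 95% Clopper-Pearson intervals. Cortical nuclei run from 0.104% in library 1 to 2.86% in library 5, and lie above the other classes when all libraries are pooled.

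Pairs of the genes were seen in the same nucleus somewhat more often than their separate shares would give, with the expected number taken within each library. Of 45 pairs, 29 had an expected number of at least 5 cortical nuclei, and 28 of these 29 had a ratio of observed to expected above 1, with a median of 1.31. The interval lay above 1 for 11. Egr4 with Npas4 had the highest ratio, 14 nuclei against 5.36 expected or 2.61 (1.43 to 4.38), followed by Fos with Npas4 at 2.59 (1.42 to 4.34). Junb with Egr1 was at 1.64 (1.31 to 2.02) from 87 nuclei, above 1 in 6 of 6 libraries. Arc with Nr4a1 was at 1.08 (0.870 to 1.33) and Egr4 with Arc, the exception below 1, at 0.891 (0.385 to 1.76). In non-neuronal nuclei the median over 28 pairs was 1.16, with 2 intervals above 1, and in striatal nuclei it was 1.43 over 20 pairs, with 4 above 1. The cortical class joins several types, and differences between those types enter the ratio. No such ratios are given for pairs of other genes, so the excess is not shown to be particular to these genes.

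Other genes of the same response were taken from lists. Among 24 other rapid response genes, 14 had at least 5 CPM in the cortical nuclei. Their summed level was 136, 212, 229.5, 245, 286 and 164 CPM in libraries 1 to 6. Library 1 was at least 2-fold lower for 5 of the 14, beside 0.263% of all genes, and library 5 at least 2-fold higher for 1, beside 0.154%. That 1 was Tiparp, an ADP-ribosyltransferase, at 6.79, 19.2, 17.0, 20.9, 34.9 and 15.8 CPM. Next in library 5 came Btg2, an inhibitor of proliferation, 1.97-fold above the median of the others, and Fosl2, a FOS family member, 1.94-fold.

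The 14 delayed response effectors, made after the factors and acting at synapses or as secreted signals, summed to 706, 998, 1049, 1109, 1239 and 964 CPM. Of the 13 with at least 5 CPM, library 1 was at least 2-fold lower for 2, beside 0.263% of all genes, and library 5 at least 2-fold higher for 0, beside 0.154%. In library 5 only 6 of the 13 were above the median of the other libraries, and the list's median was -0.05 on the log2 scale beside -0.07 over all genes. Homer1, a scaffold of the postsynaptic density with a short activity-induced form, stood at 214, 403, 428, 493, 669 and 465 CPM. The order of the sum depended on which of the highest genes entered it. Without Homer1 the other 13 genes summed to 492, 595, 621, 616, 569.6 and 499 CPM, with libraries 2, 3 and 4 above library 5. Sorcs3, a sorting receptor named after its values were seen, gave 280.3, 313, 355, 347, 279.8 and 271 CPM of these, and without both genes the other 12 summed to 212, 282, 265, 269.6, 289.7 and 228 CPM, again with library 5 highest and library 1 lowest. Pcsk1, a protease that matures neuropeptides, was 1.59-fold above the median of the others in library 5, and Rasl11b, a small GTPase, 1.45-fold.

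The upstream activators, 14 genes such as Creb1 and Crem, which encode the factors that bind the cyclic AMP response element, were nearly level. They summed to 2634, 2522, 2498, 2404, 2500 and 2552 CPM, and 0 of the 13 tested were 2-fold lower in library 1 or 2-fold higher in library 5. Mef2c gave 1323, 1169, 1181, 982, 1172 and 1292 CPM of the sum, so its order is largely that of 1 gene. In library 4, lowest for the sum, 10 of the 13 were above the median of the others, with a list median of 0.13 beside 0.05 over all genes. Of the 13 with at least 5 CPM, the highest in library 5 were Crem at 1.29-fold, Creb1 at 1.10-fold and Elk1 at 1.09-fold.

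Heat shock and hypoxia response genes, which respond to protein damage and to low oxygen, were followed as further lists, and cell stress itself was not measured. Hspa1a, Hspa1b, Dnajb1, Hspb1 and Bag3 had under 5 CPM and entered only the sum. The 11 heat shock genes summed to 545, 579, 649, 507, 335 and 259 CPM in libraries 1 to 6, highest in library 3 and lowest in library 6. The summed excitatory markers in non-neuronal nuclei, mostly Nrgn, had the same order of libraries, and the part of free RNA in the heat shock sum was not tested. Library 5, highest for the 10 genes, was at least 2-fold lower for 1 of 6 heat shock genes tested, beside 0.706% of all genes, and library 6 for 2, beside 2.82%. Dnaja1, Hsph1 and Hspe1, chaperones or their partners, stood in library 5 at 0.923, 0.809 and 0.684 of the median of the others. These were the 3 highest ratios among the 6 genes tested, which had at least 5 CPM. Hspa8 and Hsp90aa1, chaperones that made up most of the sum and are named after their values were seen, stood lower in library 5, at 84.9 and 101 CPM, than in library 4, at 159 and 171 CPM. The 10 hypoxia response genes summed to 98.7, 91.5, 97.0, 109, 91.0 and 82.4 CPM, with library 4 highest. In library 5 Pfkfb3 and Pdk1, which regulate glucose use, were at 1.33-fold and 1.25-fold, and Vegfa, a growth factor for vessels, at 0.845-fold.

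**Figure D5:**
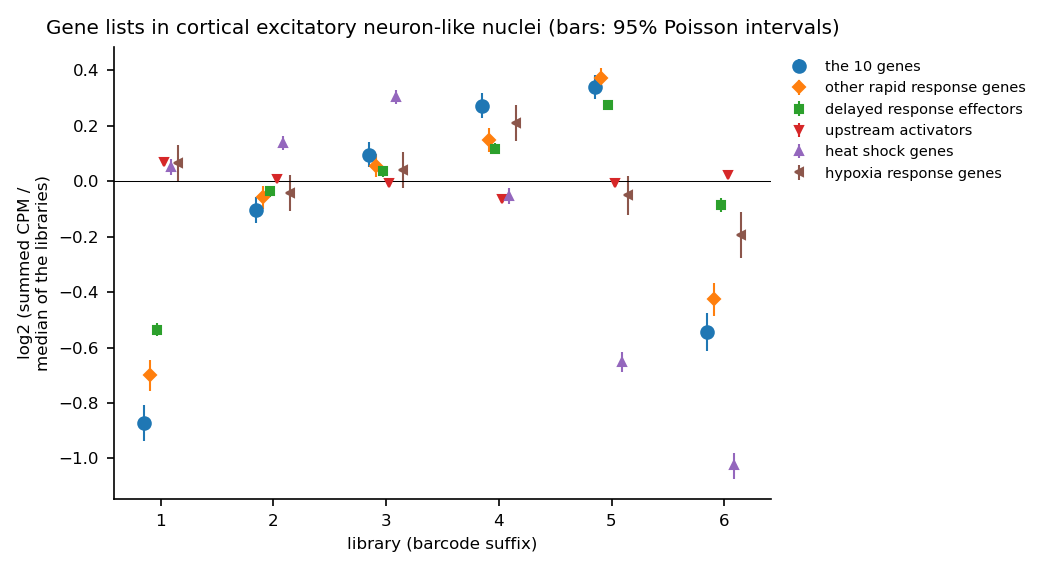
Summed level of each gene list in cortical excitatory neuron-like nuclei as log2 of its CPM over the median of the 6 libraries (y axis) in libraries 1 to 6 (x axis), with 95% Poisson intervals, many of them smaller than the symbols. The 10 genes and the other rapid response genes are lowest in library 1 and highest in library 5, the sum of the delayed effectors has the same order but is mostly Homer1 and Sorcs3, the upstream activators stay near 0, and the heat shock genes are lowest in library 6.

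The genes most like the set were sought over 78 profiles, 13 neuronal types in 6 libraries, by the correlation of log2 CPM with the summed level of the 10. Among 11350 genes with at least 5 CPM those with a high Pearson's r included Dnajb5 (0.706), Homer1 (0.704), Skil (0.691) and 1700016P03Rik (0.678), and also Syt5, Kcnh3, Sema7a and Pld3 at 0.658 to 0.631. Of the genes named here, Homer1 was also among the delayed response effectors. Within types, after each type's mean was taken off, 1700016P03Rik was at 0.72 and Homer1 at 0.70, while Kcnh3 and Sema7a fell to 0.33 and 0.37. Each of the 10 members had an r of 0.29 to 0.59 with the sum of the other 9, lowest for Egr2 and highest for Arc. The profiles share libraries and depth and are not independent, so these values are descriptions.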

How the data were processed

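The authors deposited 1 matrix of raw UMI counts per gene and barcode for the 6 libraries, in Cell Ranger format; per the file headers it was written by Cell Ranger 6.0.0, while the submitters' notes name Cell Ranger 2.1.1 and mm10. The study's methods name STARsolo, EmptyDrops and DoubletFinder. The sources used here give neither strand use nor annotation release. Barcodes at 10% or more mitochondrial UMIs were left out (11). Each nucleus was scaled to 10000 UMIs before a log transform, and 3000 variable genes without the 48 activity-regulated genes gave 30 principal components, 20 neighbours and Leiden clusters at resolution 1.0 (Scanpy 1.11.5). Clusters were named from 32 marker lists, and limits for naming were set after the clusters were seen. Scrublet scores were computed per library; clusters with a median score above 0.1 were left unnamed, and no nucleus was removed for its score except in an alternative. Sums of raw counts per class and library gave CPM and UMIs per 1000 nuclei. Intervals are at 95%: exact Poisson, Clopper-Pearson, and conditional binomial for ratios. Thinning drew 3000 UMIs per nucleus without replacement. Folds, thinning and intervals were tested on simulated data. Gene positions are from GENCODE M21 (GRCm38). The members, lists and named genes were chosen with earlier results of these data known. Among the genes of each list with at least 5 CPM, the 3 with the highest ratio in the library highest for the members were named. No test across groups was made, because no source ties suffixes to genotypes. Of the genes most like the members, some are not reported here.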

Additional observations from a re-analysis of the deposited data

How the results depend on the processing

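No paired analysis was possible because no source used here ties a barcode suffix to a mouse. The values followed were the median summed level of 183 CPM in cortical nuclei, its log2 excess in library 4 (0.37), the log2 difference of cortical over striatal nuclei (0.49) and the share of library 4 nuclei with at least 3 genes (2.32%). The log2 excess stayed above 0 in each alternative run. The difference of cortical over striatal nuclei in summed CPM was near 0 without Nr4a1 and Nr4a3 (0.0066), where the other genes went both ways. Leaving out 1 library at a time gave 170.4 to 195 CPM for the median, 0.27 to 0.58 for library 4 and 0.40 to 0.55 for cortical over striatal nuclei. The 0.58 came from leaving out library 3 or library 5, since the median of the others then falls. Leaving out a library does not bear on the share. Scaling by the median of ratios gave 0.43 for cortical over striatal nuclei. Further alternatives were chosen after seeing the data. With every excitatory neuron-like cluster in the class the first 3 values were 163 CPM, 0.31 and 0.29, and with the unnamed low-depth cluster added they were 198 CPM, 0.27 and 0.56. By UMIs per nucleus the log2 values were 0.15 and 0.91, and without Nr4a1 and Nr4a3 the excess was 0.63. Independently of those, the share of library 4 was 0.659% when thinned to 1500 UMIs, 17.1% without thinning, 13.5% for at least 2 genes and 0.0473% for at least 5. Keeping activity genes for clustering, resolutions 0.5 and 2.0, a minimum of 2500 UMIs and removal of doublets each left the 4 values within their intervals. Members with under 50 UMIs per library, such as Fosb and Egr2, are limited by depth.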

Other observations

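Nuclei that received no name also held these RNAs. A cluster of 8188 nuclei with a median of 2064 UMIs, led by Gm42418, Tuba4a and Gapdh, stood at 240 CPM for the 10 genes, and at 149, 240.3, 281, 234, 389 and 195 CPM in libraries 1 to 6. It made up 4.69% of library 4 and 10.2% to 14.9% of the others. A further unnamed cluster of 5289 nuclei, led by Baiap3, stood at 76.7 CPM, and its libraries ran from 49.5 to 105.5 CPM, lowest in library 6 and highest in library 4. The highest level of the 37 clusters, 281 CPM, was in an unnamed cluster of 607 nuclei with a median of 2277 UMIs, led by Mbp and mitochondrial genes.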
